A study of Mus musculus with 7 samples.

Results

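Inv1 limb buds were compared with wild-type (WT) limb buds by capture Hi-C around Epha4 on mouse chromosome 1. Inv1 carries a CRISPR/Cas9-induced inversion of about 620 kb that turns round the edge of the Epha4 domain together with the sequence beside it. The comparison takes 2 of the 7 libraries of the series, the WT and the Inv1 limb bud libraries, and all 103 genes of the contact tables deposited for both. Each library was 1 pool of fore- and hindlimb buds from 10 embryos at stage E11.5, titled Distal. The genotype field reads WT for one and only mutant for the other. Whether the mutant embryos also carried an unturned chromosome is not given in the labels. The cell type field names an embryonic stem cell line, G4 ESC, for every sample, in conflict with the tissue field and the titles. The files hold DNA contacts and no expression, so the tissue could not be checked against marker genes. With 1 library a side there is no replicate check, and every difference given here is between these libraries.

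Capture Hi-C joins DNA ends that lie close together in fixed nuclei, enriches a chosen region with probes and counts the joined read pairs. Contacts concentrate within topological domains, stretches of chromosome that meet themselves more than their neighbours. Their borders often bind the protein CTCF, and a border anchor can draw a row of raised contacts, a stripe, along the domain it faces. Epha4 encodes a receptor tyrosine kinase for ephrins that guides axons and patterns limb nerves and muscles. Its domain is large and gene-poor and holds distant limb enhancers, while the sequence on one side of it is crowded with genes. An inversion that spans the domain edge changes which promoters share a stretch of chromosome with those enhancers.

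Positions are given in kb along mm9 chromosome 1. Inv1 ran from 75280 to 75900 kb, with the WT domain border inside it. The moved part is the 280 kb of the Epha4 domain between that border and the right breakpoint, at 75620 to 75900 kb. The incoming sequence is the 340 kb at 75280 to 75620 kb, outside the domain in WT and brought next to it by the inversion. The left flank is the 500 kb before the left breakpoint (74780 to 75280 kb), and the gene-dense stretch lies before it at 73600 to 74780 kb. The rest of the Epha4 domain runs from 75900 to 77510 kb and the Pax3 side from 77510 to 78500 kb. On the Inv1 chromosome the moved part lay beside the left flank, at 75275 to 75555 kb of the file. The incoming sequence lay beside the rest of the domain, at 75555 to 75895 kb of the file.

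Gene contacts are compared as the log2 ratio of Inv1 to WT after 0.5 scaled units were added to both values, and a gene is said to pass 2-fold where this ratio is at least 1 or at most -1. A plain ratio is the quotient of the values with nothing added, which gives other calls for low genes.

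The promoters of 4 genes are printed because the largest values of the gene tables are theirs or stand beside theirs. Ptprn and Resp18 had the highest contact with the enhancer region in Inv1, Dnpep is the gene after Resp18 in the tables and did not pass 2-fold, and Epha4 had the lowest log2 ratio. The promoters run from 250 bases before to 50 bases after each start, 5′ to 3′ on the gene's own strand, from RefSeq for GRCm38.p6. Capitals mark GC boxes (GGGCGG, or CCGCCC on the other strand).
Ptprn promoter: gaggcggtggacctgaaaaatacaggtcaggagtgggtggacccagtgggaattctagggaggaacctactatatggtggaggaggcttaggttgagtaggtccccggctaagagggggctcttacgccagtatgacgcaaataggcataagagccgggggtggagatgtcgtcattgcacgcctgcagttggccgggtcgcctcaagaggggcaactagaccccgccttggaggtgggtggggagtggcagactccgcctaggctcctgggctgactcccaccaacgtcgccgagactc
Resp18 promoter: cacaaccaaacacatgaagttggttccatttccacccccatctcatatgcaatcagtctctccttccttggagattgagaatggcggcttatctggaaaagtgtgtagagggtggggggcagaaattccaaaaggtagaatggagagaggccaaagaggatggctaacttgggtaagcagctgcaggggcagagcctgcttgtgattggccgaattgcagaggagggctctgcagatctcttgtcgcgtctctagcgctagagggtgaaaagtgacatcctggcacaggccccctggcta
Dnpep promoter: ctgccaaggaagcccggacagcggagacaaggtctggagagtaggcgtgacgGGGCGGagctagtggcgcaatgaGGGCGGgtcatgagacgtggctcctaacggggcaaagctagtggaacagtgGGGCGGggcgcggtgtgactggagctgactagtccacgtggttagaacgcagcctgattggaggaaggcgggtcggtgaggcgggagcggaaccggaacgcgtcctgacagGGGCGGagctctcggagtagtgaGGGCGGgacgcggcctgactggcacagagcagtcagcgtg
Epha4 promoter: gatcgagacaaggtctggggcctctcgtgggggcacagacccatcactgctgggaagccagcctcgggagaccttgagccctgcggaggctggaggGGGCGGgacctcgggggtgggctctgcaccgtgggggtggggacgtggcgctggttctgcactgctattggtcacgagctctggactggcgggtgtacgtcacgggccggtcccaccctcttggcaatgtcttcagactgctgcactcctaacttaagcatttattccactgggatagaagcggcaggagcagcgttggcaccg
All 4 lie on the minus strand, Ptprn at chr1:75264159-75264458, Resp18 at chr1:75278366-75278665, Dnpep at chr1:75317588-75317887 and Epha4 at chr1:77515039-77515338. These are GRCm38.p6 positions and cannot be set against the mm9 positions of the maps. The Dnpep promoter held 5 GC boxes and 27 CpG, the Epha4 promoter 1 and 17, the Ptprn promoter 0 and 14, and the Resp18 promoter 0 and 5. Ptprn and Dnpep each had 2 promoters listed, and only the first listed promoter of each gene was used. Of the 27025 genes with a promoter there, 35.9% held the motif in it on either strand. Of the 85 genes of the contact tables with a promoter there, 50.6% held it. In the block from Wnt6 to Resp18 it was 9 of 19, and in the block from Dnpep to Slc4a3 8 of 11. A match is only a run of letters, and its absence from this window says nothing about binding.

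The contact tables also held 6 microRNA genes, and the 3 that passed 2-fold are printed, 1 above and 2 below WT. Capitals mark the seed, bases 2 to 8 of the mature RNA, which pairs with target transcripts. For Mir375 the sequence is that of the 5p arm.
mmu-miR-375-5p: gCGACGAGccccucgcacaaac
mmu-miR-6343: uGUAAAGUaggagcugacugac
mmu-miR-6352: uUUGGGAAaaggaccccagcuc
They come from RefSeq for GRCm38.p6, at chr1:74900696-74900717 (minus strand), chr1:76509620-76509641 (plus strand) and chr1:77496731-77496752 (minus strand). The 6 genes gave 7 mature sequences with 7 different seeds, so none of those listed shared a seed. The 3p arm of Mir375 was not among them, and the seed printed for Mir375 is that of its 5p arm alone. Mir375, a microRNA of pancreatic islets and other endocrine cells, was at 0.784 scaled units in WT and 5.62 in Inv1. Mir6343 was at 4.65 in WT and 0.540 in Inv1, and Mir6352 at 5.55 and 0.486. Mir6351, Mir1928 and Mir26b, earlier in the tables, did not pass, with log2 ratios of -0.46, 0.62 and 0.60. Their plain ratios were 0.416, 2.02 and 2.46, so their calls depend on the added value.

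The Inv1 map held 3903636 read pairs and the WT map 5155267. Along the 62 bins of the inverted segment, the fitted bin factors of Inv1 correlated with those of WT at r = 0.664 read backwards and -0.087 read forwards. Outside the segment the correlation was 0.990 over 936 bins. The points share probes and base composition, and the values describe only how the Inv1 file is laid out. Between 50 and 2000 kb outside the inversion, each contact was divided by the mean at its distance in the same map. The log2 ratio of Inv1 to WT, with 0.5 added to both, had an SD of 0.66 over 152742 pairs of 10 kb bins. With 0.05 added the SD was 1.51, so it depends on the added value. This spread describes single bin pairs, while the shares, joins and squares given below have nothing added.

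Contact across both new joins was high in Inv1 and low in WT. Over 100 kb each side of the new left join, which unites the left flank with the former right end of the moved part, WT had 352 read pairs and Inv1 8162. The balanced signal there was 33.2-fold above WT (± 1.81). Across the new right join, between the former left end of the incoming sequence and the rest of the domain, WT had 528 read pairs and Inv1 4167, a 9.58-fold rise (± 0.44). Turning back split bins, so these Inv1 read pairs are weighted sums. The turned bin at the new left join had extra weight and that at the new right join reduced weight. How far this moved the folds was not tested. The former neighbours came apart. Contact across the former left join was 8.22% of WT (± 0.348) and across the former right join 4.86% (± 0.271). These remaining contacts span the turned segment, and any share from an unturned chromosome was not tested. In the Inv1DelCTCF limb bud library, which carries Inv1 with a deletion named after CTCF, the new joins were 33.1-fold and 9.36-fold above WT. In Inv1 embryonic stem cells they were 31.1-fold and 9.91-fold above the same WT limb bud library. The series holds no WT stem cell library, so these folds also span a difference of cell type. Inv1DelCTCF and Inv1 stem cells were separate libraries of the same inversion.

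**Figure D1:**
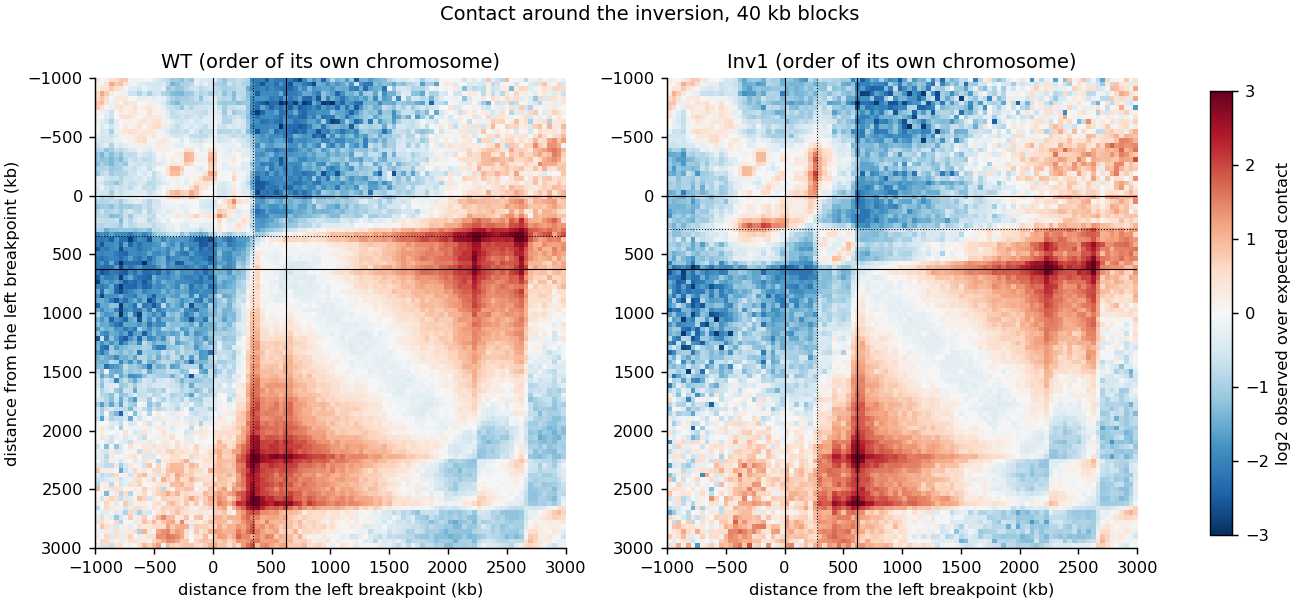
Contact around the inversion in WT and Inv1, each in the order of its own chromosome, as log2 of observed over expected contact in 40 kb blocks (colour), with both axes in kb from the left breakpoint. Solid lines mark the breakpoints and dotted lines the domain border. In WT the raised square starts at the border, and in Inv1 it starts at the right breakpoint, with the moved part separated from it.

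The moved part exchanged the Epha4 domain for the left flank. In WT 33.5% (± 0.099) of its contacts within the map were with the rest of the domain and 1.66% (± 0.0246) with the left flank. In Inv1 these shares were 5.58% (± 0.0492) and 20.3% (± 0.0999). The domain share was thus 0.166 of WT and the left flank share 12.2 times WT. Contact with the gene-dense stretch was 1.73% in WT and 3.91% in Inv1, 2.26 times WT. Contact with the Pax3 side was 8.46% and 2.65%. The moved part also met itself more, with 45.6% of its contacts in WT and 57.7% in Inv1. Balancing gives every bin the same total, so shares of one bin trade against each other. A rise in one share and a fall in another are not independent.

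The loss reached the whole remaining domain and was deepest next to the former junction. The first 400 kb of the remaining domain (75900 to 76300 kb) held 12.7% of the moved part's contacts in WT and 1.64% in Inv1. The second 400 kb held 7.07% and 1.30%. The third held 6.56% and 1.24%, and the last 7.17% and 1.39%. The Inv1 share was thus 12.9% of WT in the first stretch and 18.4% to 19.4% in the other 3. In windows of 100 kb the ratio of Inv1 to WT was 0.0797 (± 0.00258) at 75900 to 76000 kb and lay between 0.142 and 0.218 from there to 77500 kb. In the window that holds the far border of the domain, at 77500 to 77600 kb, it was 0.156 (± 0.00611). Past 78000 kb it was 0.488 to 0.588. All 161 bins of the remaining domain were over 2-fold below WT in contact with the moved part. Of the 936 bins outside the segment 30.2% were. On the Pax3 side it was 69 of 99, and beyond 78500 kb 47 of 248.

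The gain declined with distance from the new left join. Contact of the moved part with the 100 kb next to the join was 0.372% in WT and 8.08% in Inv1, a ratio of 21.7 (± 0.688). The following windows toward the gene-dense stretch stood at 14.1, 10.04, 8.08 and 4.65 times WT. Across the gene-dense stretch the ratio fell from 4.22 at 74680 to 74780 kb to 2.18 at 74180 to 74280 kb. At 73780 to 73880 kb it was 0.999 (± 0.0717). All 50 bins of the left flank were over 2-fold above WT, with ratios from 3.56 to 34.5 and a median of 10.4. In the gene-dense stretch 60 of 118 bins passed and further left 22 of 260. Over all 936 outside bins the share was 14.1%. WT contact of these left flank bins was nearly level, at 0.0210% to 0.0428% of the moved part's contacts each. In Inv1 the range was 0.0963% to 1.40%, with no overlap.

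**Figure D2:**
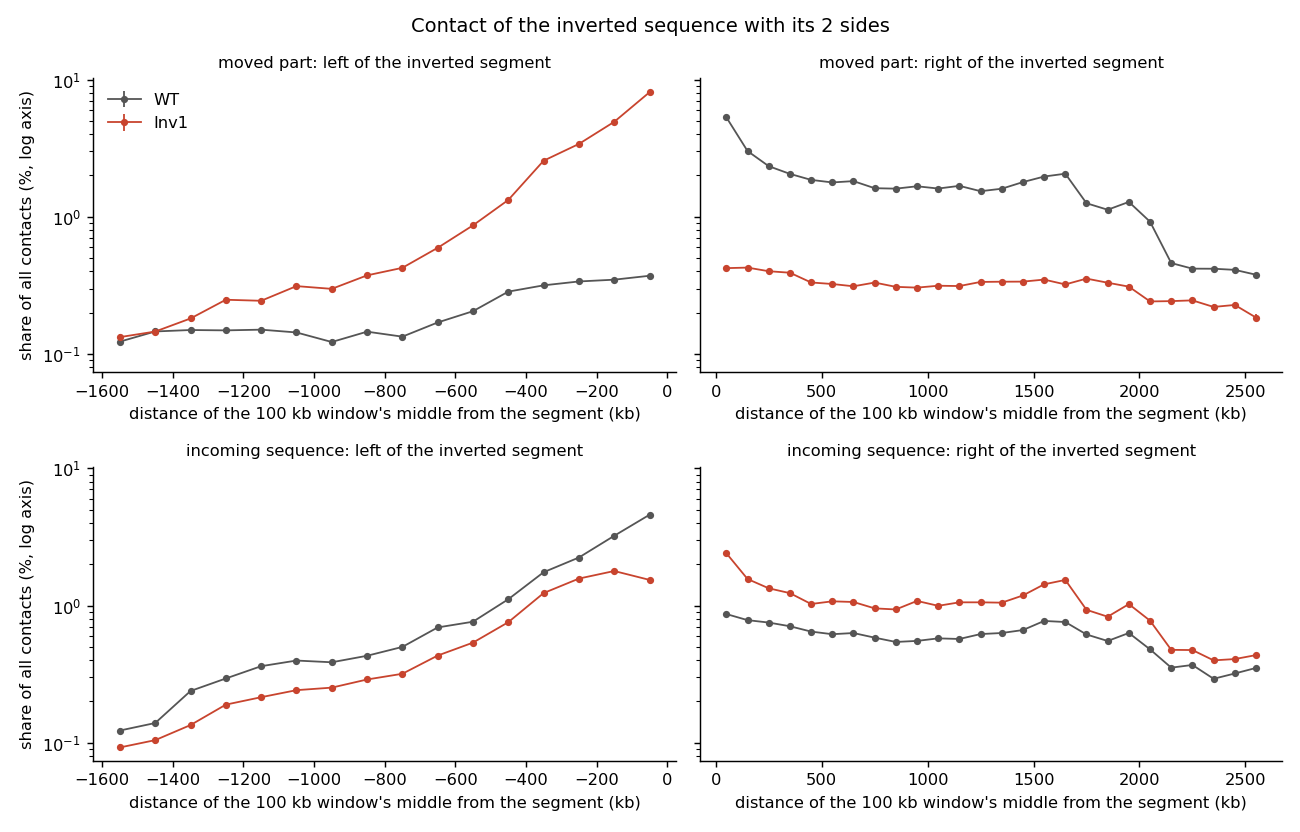
Share of all contacts of the moved part (top) and of the incoming sequence (bottom) in 100 kb windows left and right of the inverted segment, as percent on a log axis against distance in kb, in 1 WT and 1 Inv1 library. Bars, mostly smaller than the points, are counting standard errors. The moved part's Inv1 line lies above WT on the left near the segment (8.08% against 0.372% in the nearest window), meets it at the far left, and lies below it on the right.

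Every bin of the moved part changed in the same direction. Its 28 bins of 10 kb had 1.18% to 3.19% of their contacts with the left flank in WT and 14.3% to 32.6% in Inv1. With the rest of the domain they had 26.7% to 48.6% in WT and 4.78% to 8.81% in Inv1. The ranges did not overlap in either case. For the 34 bins of the incoming sequence they overlapped in both cases. Neighbouring bins of 1 map are not independent. The bins of the moved part were not alike, however. In WT the bin at the right breakpoint (75890 kb) had the highest domain share, at 48.6%, and in Inv1 the highest left flank share, at 32.6%. A separate peak lay at 75640 kb, next to the domain border, with 43.5% to the domain in WT and 31.8% to the left flank in Inv1. This bin lay at the other end of the moved part from the right breakpoint, and its neighbours toward the middle of the moved part were lower in both libraries. The lowest left flank share in Inv1 was 14.3%, at 75710 kb.

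The incoming sequence changed in the opposite direction and by less. Its share with the rest of the Epha4 domain was 10.6% (± 0.0516) in WT and 19.6% (± 0.0814) in Inv1, 1.85 times WT. With the left flank it was 12.9% (± 0.0652) and 6.88% (± 0.0508), 0.533 of WT. With the gene-dense stretch it was 4.42% and 2.87%, and with the Pax3 side 4.64% and 7.09%. Its contact with itself was 58.6% in WT and 53.8% in Inv1. In the same 4 stretches of the remaining domain the ratio to WT was 2.10, 1.66, 1.81 and 1.78. The nearest 100 kb stood at 2.77 times WT (± 0.0575), the further windows to 77500 kb at 1.59 to 1.99, and the window of the far border at 2.03 (± 0.0485). On the left side the nearest window was at 0.335 of WT (± 0.00578) and the others at 0.554 to 0.753. Of the 161 domain bins 29 were over 2-fold above WT in contact with the incoming sequence, against 4.27% of all 936 outside bins. Of the 50 left flank bins 11 were over 2-fold below WT, against 8.33% of all outside bins, and of the 260 bins of the far left 49 were. Most of these changes were therefore under 2-fold per bin.

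Within the incoming sequence the direction depended on the end. The bin at 75280 kb, on the left breakpoint, went from 42.7% to 1.75% of its contacts with the left flank and from 5.07% to 52.8% with the remaining domain. Of the 34 bins, 25 had a higher domain share in Inv1 and 23 a lower left flank share. The bins next to the border behaved like the moved part. The one at 75610 kb went from 31.3% to 10.2% with the domain and from 3.79% to 19.8% with the left flank. A smaller rise stood at 75450 to 75460 kb. The bin at 75460 kb had 14.8% with the left flank in WT and 20.4% with the domain in Inv1.

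**Figure D3:**
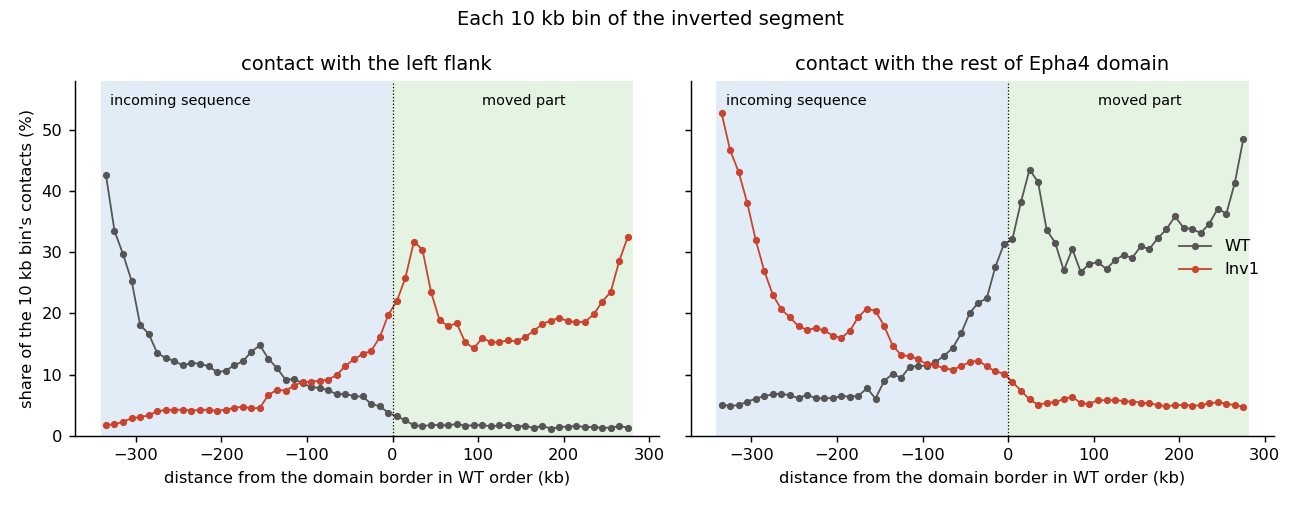
Share of each 10 kb bin's contacts (percent) with the left flank (left) and with the rest of the Epha4 domain (right), against distance in kb from the domain border in WT order, for 1 WT and 1 Inv1 library. Blue shading is the incoming sequence and green the moved part, in which the Inv1 left flank shares of 14.3% to 32.6% lie above the WT shares of 1.18% to 3.19%.

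Distance was set apart by dividing each contact by the mean at the same distance in its own map. The left flank and the moved part were at 0.28 of expected contact in WT, across the border and 730 kb apart on average. In Inv1 they were at 1.43 with 390 kb between them. The moved part and the rest of the domain went from 2.25 at 945 kb to 0.632 at 1285 kb. The incoming sequence and the rest of the domain went from 1.10 to 1.41. The incoming sequence and the left flank were at 0.916 in WT at 420 kb and 0.963 in Inv1 at 695 kb, so the loss seen in the shares was not present by this measure. Contact of the moved part with the Pax3 side was at 3.49 of expected in WT and 1.74 in Inv1. Contact of the incoming sequence with that side was at 2.63 and 3.20. By this measure the moved part was still higher with the left flank and lower with the domain and the Pax3 side in Inv1.

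Pairs that kept their distance were a measure of change without displacement. The moved part and the incoming sequence turned together, with the border between them, and were at 0.357 of expected contact in WT and 0.488 in Inv1. As a share of the moved part's contacts this was 4.68% in WT and 6.48% in Inv1, 1.39 times WT. The left flank and the rest of the domain lay outside the inversion on either side of it. They were at 0.578 of expected in WT and 0.687 in Inv1, and the share of the left flank's contacts was 3.31% and 3.91%. Other shares between sequences that kept their distance went both ways. Contact with itself was 1.27 times WT for the moved part and 1.03 for the rest of the domain. It was 0.919 for the incoming sequence and 0.928 for the left flank, and the left flank with the gene-dense stretch was at 0.923. In 100 kb blocks outside the inversion, pairs that spanned it had a median log2 ratio of 0.21 (SD 0.24, 91 pairs) and pairs that did not 0.020 (SD 0.16, 1440 pairs). All were up to 2000 kb apart, but spanning pairs were at least 800 kb apart while the others began at adjoining blocks. These groups were thus not matched for distance, and how far that moved the medians was not tested. Block pairs were also ranked, over longer distances as well, after those with few WT read pairs had been left out. The pair then furthest from WT, chosen after its value was seen, was 74200 with 75100 kb. It was at -0.70 with 337 read pairs in WT and 191 in Inv1.

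The domain border remained in Inv1 with a smaller depth. In WT the insulation minimum lay at 75610 kb and was 1.48 log2 units deep. In Inv1 it lay at 75560 kb of the file, the turned place of that border, with a depth of 0.96. With squares of 100 kb in place of 200 kb the depths were 1.47 and 1.35, and with 400 kb 1.25 and 0.336. The size of this fall thus depended on how far across the border contact was averaged. The parts beside the border are 280 and 340 kb long, so squares of 400 kb reached past both breakpoints. There they covered different sequence in WT and Inv1. The 300 kb reach used for the depth also passed the end of the moved part. A deep minimum also stood near the right breakpoint of Inv1, at 75860 kb of the file with a depth of 1.02. That place holds the sequence of a minimum at 75310 kb in WT with a depth of 0.53, so a carried border and one made at the join cannot be told apart. The far border of the domain at 77510 kb had a depth of 1.20 in WT and 1.08 in Inv1.

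Focal contacts of the domain corners changed partner. These places were singled out after the maps had been seen, so their values are descriptions. In WT the border anchor at 75640 kb met the far border at 77510 kb at 14.7 times expected contact (± 0.593, 613 read pairs in a 3 by 3 bin square). In Inv1 this square was at 1.14 (± 0.232, 24 read pairs). The ring around it, 4 to 8 bins from its centre, was at 5.56 in WT and 1.92 in Inv1. The incoming sequence had a counterpart close to the left breakpoint. Its place at 75300 kb was at 1.36 with the far border in WT (30 read pairs) and at 11.6 in Inv1 (± 0.548, 445 read pairs). The ring around that square was at 1.67 in WT and 5.57 in Inv1, so part of the rise was shared by the surroundings. The same held for a second maximum at 77890 kb on the Pax3 side. There the border anchor went from 13.3 (± 0.779) to 1.65 (± 0.399), and the incoming anchor from 2.10 (± 0.377) to 9.74 (± 0.72). Their rings went from 5.54 to 2.32 and from 1.92 to 4.88. The border anchor in turn met 75110 kb in the left flank at 0.214 in WT (13 read pairs) and 5.34 in Inv1 (± 0.33, 262 read pairs). The ring around this square was at 0.424 in WT and 1.89 in Inv1.

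Values of these squares in the other libraries of the same inversion are given beside them. The incoming anchor met the far border at 12.3 times expected in Inv1DelCTCF and 5.69 in Inv1 stem cells. The border anchor met the far border at 2.06 in Inv1DelCTCF and 1.50 in stem cells, against 1.14 in Inv1 limb buds. It met 75110 kb at 1.11 in Inv1DelCTCF and 2.96 in stem cells, against 5.34 in Inv1 limb buds. For the left flank square the library with the CTCF-named deletion was thus the lowest of the 3. The extent of that deletion is not given in the labels.

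**Figure D4:**
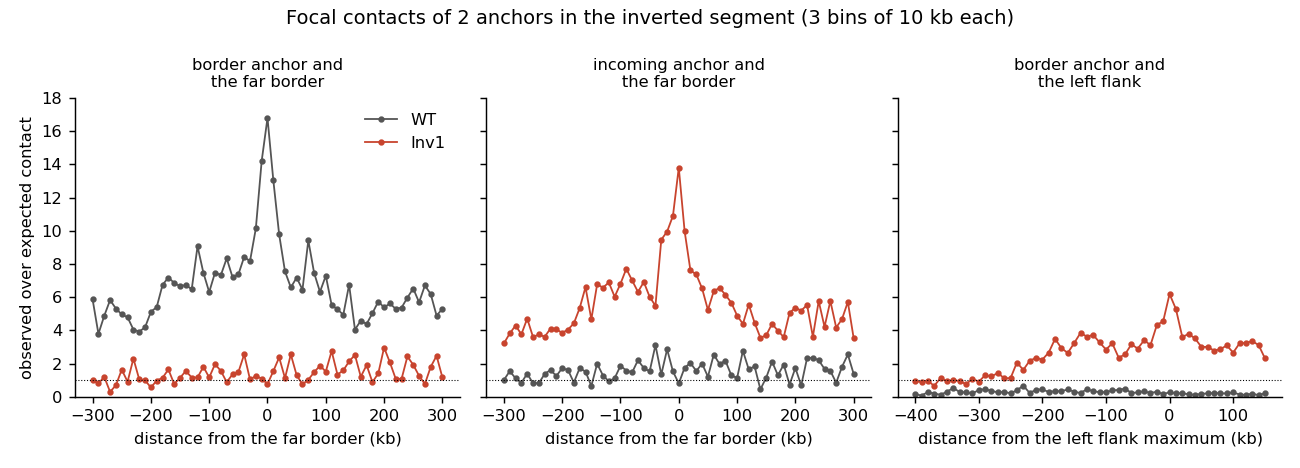
Observed over expected contact of the border anchor (left and right panels) and of the incoming anchor (middle panel), 3 bins of 10 kb each, against distance in kb from the far border or from the left flank maximum, for 1 WT and 1 Inv1 library. The border anchor peaks at the far border in WT, the incoming anchor peaks there in Inv1, and the border anchor peaks in the left flank in Inv1.

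The gene tables give 1 scaled contact per gene, between its start site and an enhancer region that the tables do not locate. In WT the highest gene was Epha4, followed by Mir6352, Mir6343 and Gm17751. In Inv1 the highest were Ptprn, Resp18, Dnajb2 and Nhej1, and Epha4 was 68th of 103. With 0.5 added, 37 genes passed 2-fold above WT (35.9%) and 4 below (3.88%), and 62 did not pass. By the plain ratio, which exists for the 87 genes above 0 in both libraries, 51 were over 2-fold above (58.6%) and 8 below (9.2%). This rule was added after the values had been seen. These shares are the background for all gene counts that follow, which use the added 0.5 unless the plain ratio is named. The sources used here do not say how the tables were scaled, and the median gene had a log2 ratio of 0.62, so ratios are also given after subtracting it. The 35 genes at the ends of the tables, furthest from the inversion in gene order, had a median log2 ratio of 0.32, and 1 of them, Igfbp2, passed 2-fold. By the plain ratio 12 of their 25 genes above 0 in both were over 2-fold above and 3 below. Of the 103 genes 30 shared both values with another gene, and 11 were listed at 0 in WT and 5 in Inv1. The depth behind these values is unknown.

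**Figure D5:**
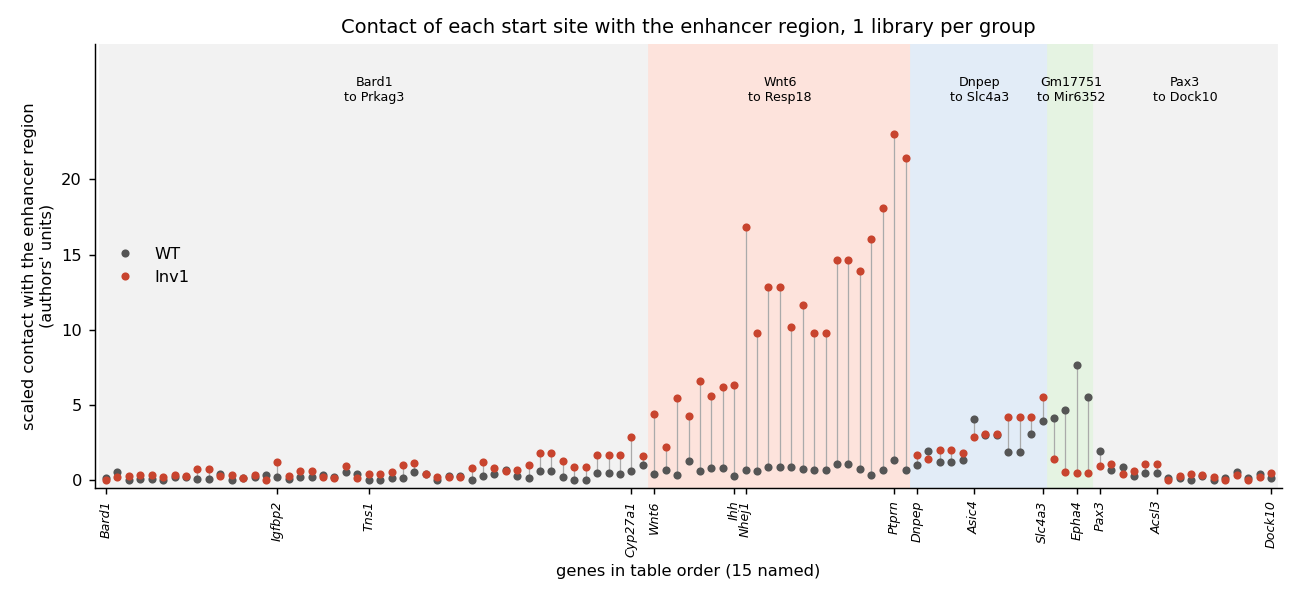
Scaled contact of the 103 genes with the enhancer region in table order, in the authors' units, with 1 point per gene for WT and 1 for Inv1 joined by a line. Shading marks the gene blocks of the text. Inv1 points rise to 22.99 at Ptprn and drop to 1.69 at the next gene but one, Dnpep, while Epha4 has the highest WT point, 7.68.

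The 23 genes from Wnt6 to Resp18 carried the gain. The block was bounded by the Inv1 values, so its count is fixed in part by that choice. Their WT values were 0.260 to 1.35 and their Inv1 values 2.19 to 22.99, without overlap. All 23 were over 2-fold above WT, also by the plain ratio, with a median log2 ratio of 3.24. After subtracting the median gene the median was 2.61 and 21 of 23 passed.

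At the Resp18 end stood genes of secretory vesicles and protein folding. Ptprn, a phosphatase-like protein of dense-core vesicle membranes, was at 1.35 in WT and 22.99 in Inv1, 16.98 times WT. Resp18, an endocrine protein of the same secretory pathway, was at 0.682 and 21.4. Dnajb2, a co-chaperone of neurons, went from 0.679 to 18.1. A630095N17Rik had the highest log2 ratio of all genes, 4.31, with 0.335 in WT and 16.02 in Inv1. Tuba4a, an alpha tubulin, was at 0.739 and 13.9. Of these 5 genes only Ptprn was also high for the block in WT, where it ranked 15th of all genes.

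A run of broadly used genes followed. Stk16, a membrane-bound kinase, and Glb1l, a relative of beta-galactosidase, shared the values 1.09 in WT and 14.6 in Inv1. Atg9a, a membrane protein of autophagy, and Ankzf1, which acts on stalled ribosomes, shared 0.652 and 9.78. Abcb6, an ATP-driven transporter, went from 0.776 to 11.7 and Zfand2b, a factor of protein degradation, from 0.884 to 10.2. Fam134a and Cnppd1 shared 0.857 and 12.9. Slc23a3, a solute carrier, was at 0.591 and 9.78. Nhej1, which joins broken DNA ends, was at 0.709 in WT and 16.8 in Inv1, higher than its neighbours on both sides. The 15 genes from Nhej1 to Resp18 all passed, before and after subtracting the median gene, at 9.78 to 22.99 in Inv1.

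The limb signals lay at the far end of the block, with smaller values. Ihh, a hedgehog ligand of growing cartilage, was at 0.260 in WT and 6.31 in Inv1, a log2 ratio of 3.17. Wnt6, a Wnt ligand of surface ectoderm, was at 0.401 and 4.41, with a log2 ratio of 2.44. Wnt10a, a Wnt ligand of skin and teeth, was at 0.697 and 2.19. Its log2 ratio was 1.17, and 0.55 after subtracting the median gene. All 3 ligands thus passed 2-fold before centring and 2 of them after it.

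Between these ligands stood genes of nerve and lens. Cdk5r2, an activator of a neuronal kinase, went from 0.365 to 5.44. Fev, a transcription factor of serotonergic neurons, was at 1.31 and 4.28, a log2 ratio of 1.40 that became 0.78 after centring. Cryba2, a lens crystallin, went from 0.586 to 6.62, and Ccdc108, a gene of cilia and sperm flagella, from 0.814 to 6.21. The 8 genes from Wnt6 to Ihh reached 2.19 to 6.62 in Inv1, below every one of the 15 genes from Nhej1 to Resp18.

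Beyond Wnt6 the gain went on at a lower level. The 10 genes from Usp37 to Prkag3 were at 0 to 1.01 in WT and 0.910 to 2.88 in Inv1, and 9 passed 2-fold, none of them after subtracting the median gene. Cyp27a1, a sterol hydroxylase of bile acid synthesis, was the highest, at 0.633 in WT and 2.88 in Inv1. Usp37, a deubiquitinating enzyme, and Rqcd1, a subunit of the deadenylase complex, shared 0.630 and 1.83. Plcd4, a phospholipase, went from 0.233 to 1.31 and Ttll4, a polyglutamylase, from 0.447 to 1.70. Rnf25 and Stk36 shared 0.480 and 1.66. Zfp142 and Bcs1l, the latter a mitochondrial assembly factor, were listed at 0 in WT and at 0.910 in Inv1. Prkag3, a regulatory subunit of the AMP-activated kinase in muscle, had 1.01 and 1.61 and did not pass.

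Of the 15 genes from Tns1 to Vil1, 4 passed 2-fold. Vil1, an actin-bundling protein of intestinal microvilli, was at 0.159 in WT and 1.01 in Inv1. Cxcr1, a chemokine receptor, was at 0.150 and 1.01 and Gm216 at 0.269 and 1.21. Tmbim1 was listed at 0 in WT and at 0.806 in Inv1. Igfbp2, a binding protein of insulin-like growth factors and the only gene to pass among the 35 at the table ends, was at 0.213 and 1.22. None of these 5 passed after subtracting the median gene.

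The 12 genes from Dnpep to Slc4a3 differed less. Their WT values were 1.01 to 4.08 and their Inv1 values 1.40 to 5.57, and none passed 2-fold in either direction with 0.5 added. By the plain ratio 2 of them, Obsl1 and Inha, were over 2-fold above WT. The median log2 ratio was 0.43, with 10 genes higher and 2 lower, and it was -0.20 after subtracting the median gene. The direction of this block therefore depends on the scale. Dnpep, an aminopeptidase, was at 1.01 in WT and 1.69 in Inv1, while Resp18, the gene before it, went from 0.682 to 21.4.

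Muscle and filament genes of this block differed among themselves. Obsl1, a cytoskeletal linker, shared its values with Inha, the inhibin alpha subunit, at 1.87 in WT and 4.21 in Inv1. Their log2 ratio of 0.99 was the highest of the block, and their plain ratio was 2.25. Speg, a kinase of striated muscle, was at 1.18 and 2.02, as was Gm15179. Des, the intermediate filament desmin, was at 1.93 and 1.40. Of the 3 muscle and filament genes Des, Speg and Obsl1, none passed with 0.5 added and Obsl1 alone was over 2-fold by the plain ratio.

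Of the others, Slc4a3, an anion exchanger, was at 3.91 in WT and 5.57 in Inv1, the highest Inv1 value of the block. Stk11ip was at 3.10 and 4.22. Chpf, an enzyme of chondroitin synthesis, and Tmem198 shared 2.98 and 3.04. Asic4, a member of the acid-sensing ion channel family in neurons, was at 4.08 and 2.86, with a log2 ratio of -0.44. Gmppa was at 1.37 and 1.81. In both libraries the values tended to be higher toward the Slc4a3 end of the block, at 1.01 to 1.93 in WT from Dnpep to Gmppa and 1.87 to 4.08 from Asic4 to Slc4a3. Of the 6 neuroendocrine and neuronal genes listed together, Ptprn, Resp18, Cdk5r2 and Fev passed 2-fold and Asic4 and Tmem198 did not. The 4 that passed lie in the block from Wnt6 to Resp18, where 23 of 23 genes did. Asic4 and Tmem198 lie in the block from Dnpep to Slc4a3, where 0 of 12 did. Over all genes 37 of 103 passed above WT.

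Epha4 and its neighbours lost contact. Epha4 was at 7.68 in WT and 0.487 in Inv1, which is 6.34% of WT as a plain ratio. After adding 0.5 to both values its log2 ratio was -3.05. Gm17751 was at 4.15 and 1.43, with a log2 ratio of -1.27. Mir6343 and Mir6352, whose mature sequences are printed above, had log2 ratios of -2.31 and -2.62. These 4 genes were the 4 highest in WT, and with 0.5 added they were the only 4 of 103 past 2-fold below WT. By the plain ratio Abca12 (0.377), Mir6351 (0.416), 1700016L21Rik (0.466) and Pax3 (0.487) were also over 2-fold below, and 5 genes above 0 in WT were listed at 0 in Inv1. The smallest fall of the 4 was that of Gm17751, the first of them after Slc4a3 in table order. After subtracting the median gene all 4 were still over 2-fold below WT, with a median of -3.09.

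No gene from Pax3 onward passed 2-fold with 0.5 added. By the plain ratio, 5 of the 11 genes above 0 in both libraries were over 2-fold above WT and 2, Pax3 and 1700016L21Rik, below. The 5 were Dock10, at 2.59 times WT, and Utp14b, Acsl3, Mogat1 and Scg2, the last at 2.09. Pax3, a transcription factor of muscle precursors and neural crest, was at 1.98 in WT and 0.963 in Inv1, a log2 ratio of -0.76 that became -1.38 after centring. Farsb, a subunit of a transfer RNA synthetase, was at 0.853 and 0.426. Sgpp2, a lipid phosphatase, was at 0.667 and 1.06, and Mogat1, an acyltransferase of fat synthesis, at 0.304 and 0.643. Of the 16 genes from Pax3 to Dock10, 9 were higher and 7 lower in Inv1, with a median log2 ratio of 0.22.

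The tables give neither gene positions nor the place of the enhancer region. In them the Inv1 values fell 12.6-fold from Resp18 to Dnpep, and whether this step lies at a breakpoint, and whether the enhancer region is the moved part, was not tested.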

How the data were processed

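Capture Hi-C libraries of WT and Inv1 limb buds were compared, with 1 library each. Per the submitters' processing notes, reads were handled with Bowtie2 2.2.6 and Juicer on mm9. Which tool did what is not given in the sources used here. Each deposited map holds 1 signal value per pair of 10 kb bins from 71 to 81 Mb, which the authors had balanced (Knight-Ruiz, per the file names). The authors' gene tables hold 1 scaled contact signal for each of 103 genes, with the scaling not given in the sources used here. No column outside the 7 samples was found.

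From the balanced signal, whole read pairs were recovered by fitting 1 factor per bin, a step tested on simulated data. Below 20 read pairs, 100% of values lay within 0.1 of a whole number. The recovered totals of 5155267 read pairs in WT and 3903636 in Inv1 gave the counting standard errors printed as ±, which cover counting alone. A bin was dropped where it listed less than 25% of the median number of pairs, which took out 1 bin in WT and 2 in Inv1.

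The Inv1 map is written along the rearranged chromosome and was turned back inside 75280 to 75900 kb (reference position = 151.175 Mb minus file position). That constant is not a whole number of bins, so a turned reference bin took the mean of neighbouring file bins. Inv1 read pairs of turned shares, windows and joins are therefore weighted sums. The outermost file bin at the new left join had extra weight and that at the new right join reduced weight. Shares were summed signal over all signal of the same bins within the map. Observed over expected contact was the signal over the map's own mean at that distance. Insulation was the log2 of mean contact across each bin in a 200 kb square, and border depth its fall below the surroundings within 300 kb. Gene ratios used log2((Inv1 + 0.5)/(WT + 0.5)) with negative values set to 0, so low genes appear to change less than they did.

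With 1 library a side no test was made, and a 2-fold difference was used to describe genes and bins. Every gene from Wnt6 to Pax3 could be named, and of the others those over 2-fold from WT and the extremes. Genes, lists and regions were chosen with earlier results of these data known, and the gene block from Wnt6 to Resp18 was bounded by the Inv1 values themselves. The Inv2, Inv3 and Inv4 files were not analysed here. Python 3.11.15 with numpy 2.4.6, pandas 2.3.3 and matplotlib 3.10.9 was used. RefSeq for GRCm38.p6 held all 103 gene names, 5 of them as older names.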

Additional observations from a re-analysis of the deposited data

How the results depend on the processing

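Of 71 alternative values, 28 were the same, 42 moved and 1 reversed. Moved means by more than the 95% counting error for contact shares, joins and anchor squares, by more than 10% for the border depth and the SD, by over 1.5 times for a count, and by more than 0.53, the SD of the 35 table-end genes' log2 ratios, for gene ratios. No direction other than the reversed one changed. Genes over 2-fold above WT, 37 as reported, numbered 59 with a pseudocount of 0.05, 17 with 5 and 21 after subtracting the median gene. Genes below, 4 as reported, numbered 12, 1 and 13. The median log2 ratio from Wnt6 to Resp18 was 3.81, 1.40 and 2.61, and that of Epha4 -3.85, -1.21 and -3.67. The median of the 14 genes from Dnpep to Mir6343, 0.35 with 0.5 added (the 12 genes of the text with Gm17751 and Mir6343), reversed to -0.27 after subtracting the median gene. Alternatives chosen after seeing the data were centring on the 35 genes at the table ends (26 above, 6 below), plain ratios of the 87 genes above 0 in both libraries (51 above, 8 below), the shorter list from Dnpep to Slc4a3 (0.43) and squares of 5 by 5 bins.

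Ratios of contact share to WT are given with recovered read pairs, 20 kb inward limits and no pairs within 20 kb, in that order. The moved part with the remaining domain was at 0.170, 0.177 and 0.183, and with the left flank at 13.7, 11 and 12.8. The incoming sequence with the domain was at 1.67, 1.60 and 1.78. With the left flank it was at 0.567 from read pairs and 0.666 inward. The moved part with the incoming sequence was at 1.50 from read pairs and 1.51 without near pairs, and the left flank with the domain at 1.08 and 1.15. Thinning WT to the Inv1 depth left all 6 within counting error.

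Contact across the new left join was 55.8-fold over 50 kb, 18.6-fold over 200 kb, and 29.3- and 37.0-fold with the turn-back constant 10 kb higher and lower. Across the new right join it was 23.02, 5.43, 12.3 and 7.51, and 10.5 from read pairs. The border depth difference of Inv1 minus WT, -0.53 as reported, was -0.12 with 100 kb and -0.92 with 400 kb squares. The SD outside the inversion was 1.51 with a pseudocount of 0.05 and 0.15 over 5 by 5 bins. The border anchor's log2 change at the far border, -3.69, was -2.66 with the larger square. No paired analysis was possible because each condition had 1 library. Depth limits single bin pairs most: 34.1% of the pairs listed in WT and 36.2% in Inv1 held 1 read pair.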
